A study of Mus musculus with 6 samples.

Results

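Oxidative phosphorylation is carried out in the inner mitochondrial membrane by 5 protein complexes, and most of their subunits are encoded in the nucleus. The abundance of 39 such nuclear genes, of 14202 Ensembl gene identifiers in the series, was examined in A375 tumours under ZLD1039 and under vehicle. The genes were picked as known subunits and matched by identifier, with no threshold on a measured value. They cover complex I (14 genes), complex II (4), complex III (7), complex IV (9) and the ATP synthase, or complex V (5). Rows were found for 30 of them: 11, 2, 6, 6 and 5 genes of complexes I to V. NDUFA9, NDUFB5, NDUFV2, SDHA, SDHD, UQCRFS1, COX6A1, COX7C and COX8A had no matching row and were not analysed here.

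Complexes I and II pass electrons from NADH and from succinate to ubiquinone, complex III hands them on to cytochrome c, and complex IV reduces oxygen with them. Complexes I, III and IV pump protons across the membrane, and the ATP synthase uses the returning protons to make ATP. Complex II is built from nuclear genes alone, whereas the other complexes also hold subunits encoded in mitochondrial DNA. In melanoma, the use of oxidative phosphorylation varies between tumours and has been linked to the lineage factor MITF and the coactivator PPARGC1A.

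A375 is an established human melanoma cell line, labelled wild type, and was grown under the skin of BALB/c nude mice, which lack mature T cells. Mice received vehicle, or ZLD1039 at 100 mg/kg each day by mouth, and tumours were taken on day 27. ZLD1039 inhibits EZH2, the enzyme of Polycomb repressive complex that methylates histone H3. Tumours numbered 3 in each group, out of 5 mice per group in the labels, and the comparison asks what differs under the inhibitor. Whether each tumour had its own mouse is not spelled out in the labels, and p-values cover the spread among these 6 tumours alone. Every tumour derives from 1 cell line, and no comparison reaches beyond it. Values are FPKM, fragments scaled by transcript length and library size, so that levels can be compared between genes. Their depth is unknown, so their counting error cannot be estimated.

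Positions in the files are human although the labels name mouse, and no names accompany the identifiers. Gene symbols were therefore paired with the identifiers from background knowledge, and 30 of 30 loci lay on the chromosome known for the gene. ZLD1039 tumour 2 stood apart. It held both the highest value at 26.5% and the lowest at 24.5% of the 10834 loci tested, and it listed 12114 loci against 12508 to 12758 in the other tumours. Results that rest on it are given with and without it. Of 8 melanocyte genes, 5 had rows. SOX10 (the more abundant of 2 loci) lay between 21.3 and 70.0 FPKM, S100B between 1.09 and 8.98, and MITF between 0.579 and 2.21. The pigment genes PMEL and TYRP1 lay at no more than 0.457 and 0.0684. Summed over the list, the 5 genes gave 54.0 to 81.2 FPKM under vehicle and 24.3 to 56.2 under ZLD1039. Of the 3 tested, all lower under ZLD1039 in mean log2 value, 0 were called by limma, against 0.0185% of all loci. SOX10 alone had an unadjusted p under 0.05, where all loci gave 4.94%. MITF measured 1.43, 1.39 and 2.21 FPKM under vehicle and 0.579, 1.34 and 1.38 under ZLD1039, without overlap (limma, adjusted p = 0.881). This order was found at 5.2% of all loci, and SOX10 and S100B overlapped between the groups. The part of these genes in the results was not tested. In bulk tumours, fewer cells of a type and less RNA per cell cannot be told apart.

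No subunit gene passed the test for a difference between the groups. Of the 30 genes tested, 0 passed an adjusted p of 0.05 (limma on log2(FPKM + 1), Benjamini-Hochberg over 10834 loci), against 0.0185% of all loci, and the smallest adjusted p of a member was 0.881. An unadjusted p under 0.05 was found for 1 of the 30, SDHB, where all loci gave 4.94%. The median log2 difference, ZLD1039 minus vehicle, was 0.20 over the 30 genes, with 26 above 0, against a median of 0.02 and 52.8% above 0 over all loci. Without ZLD1039 tumour 2 the median of the 30 was 0.01, with 17 above 0 and 13 below. The median standard error of a member's difference was 0.21, and that of all loci was 0.23.

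Summed over the 30 genes, abundance was 1672, 1613 and 1858 FPKM in vehicle tumours 1, 2 and 3. It was 1741, 2555 and 1777 FPKM in ZLD1039 tumours 1, 2 and 3. The high value was that of ZLD1039 tumour 2, and the other 2 treated tumours lay inside the vehicle range. The ratio of the group means, ZLD1039 to vehicle, was 1.18 with all tumours and 1.03 without ZLD1039 tumour 2.

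**Figure D1:**
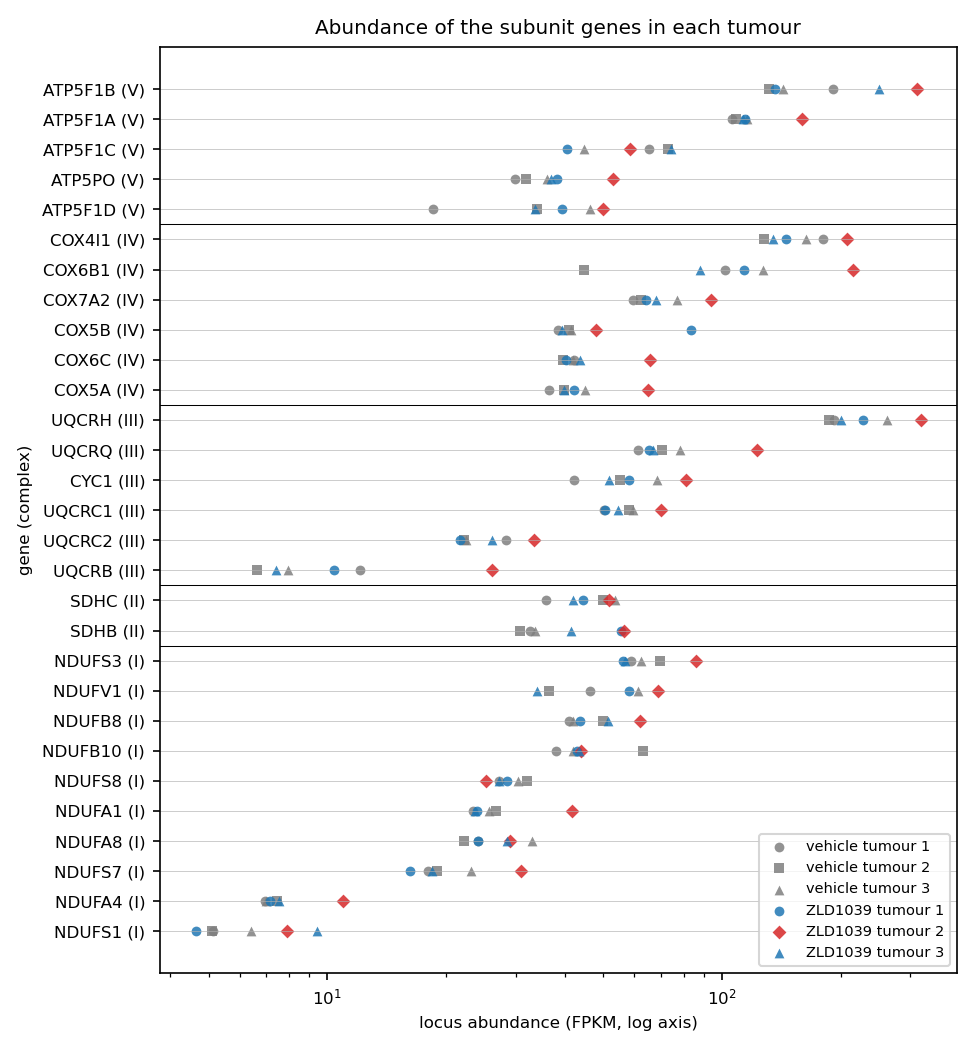
Locus abundance in FPKM on a log axis (horizontal) of 29 subunit genes (vertical, grouped by complex). Each point is 1 tumour, and ZLD1039 tumour 2 (red diamonds) is the highest of the 6 at 22 genes.

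Levels of the 30 genes spanned a wide range. UQCRH of complex III was highest with a mean of 232 FPKM over the 6 tumours, followed by ATP5F1B at 194, COX4I1 at 159.8, ATP5F1A at 119.7 and COX6B1 at 115 FPKM. NDUFS1 was lowest at 6.43 FPKM, with NDUFA4 at 7.83 and UQCRB at 11.8 FPKM. The median over the genes was 47.3 FPKM. NDUFA4 was first described in complex I, and is now regarded as a subunit of complex IV. All values by complex given here count it under complex I.

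With all tumours, complex I had the smallest median difference of the 5 complexes; without ZLD1039 tumour 2 those of complexes III and IV lay nearer to 0, at -0.0037 and 0.024. Its 11 genes summed to 379 ± 27.3 FPKM under vehicle and 392 ± 62.9 under ZLD1039 (SD, n = 3), with a median log2 difference of 0.07, and of -0.08 without ZLD1039 tumour 2. NDUFS3 (ENSG00000213619, chromosome 11, 47586888 to 47604020), a core subunit of the arm that projects into the matrix, was the most abundant. NDUFS3 measured 58.8, 69.7 and 62.4 FPKM in the vehicle tumours and 56.0, 86.2 and 56.9 in the ZLD1039 tumours. Only ZLD1039 tumour 2 lay above the vehicle tumours, and the other treated tumours lay just below them.

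NDUFS1 (ENSG00000023228, chromosome 2, 206992284 to 207024327), which holds iron-sulfur clusters on the electron path, had the highest difference of complex I. It measured 5.12, 5.10 and 6.41 FPKM under vehicle and 4.65, 7.88 and 9.41 under ZLD1039, a log2 difference of 0.31 (standard error 0.25, limma, adjusted p = 0.881). ZLD1039 tumour 1 was the lowest of all 6, so the groups overlapped.

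The other complex I genes overlapped between the groups. NDUFS8 (ENSG00000110717), another iron-sulfur subunit, was the only member that was lowest in ZLD1039 tumour 2, at 25.3 FPKM against 27.3 to 32.1 in the other tumours. NDUFB10, an accessory subunit of the membrane arm, was high in vehicle tumour 2 at 63.1 FPKM and lay between 38.0 and 43.8 elsewhere. NDUFA1 (ENSG00000125356), an accessory subunit encoded on the X chromosome, lay between 23.4 and 26.7 FPKM in 5 tumours and at 41.7 in ZLD1039 tumour 2. NDUFV1, which binds NADH, ranged from 34.0 to 68.7 FPKM with both extremes in the treated group. NDUFA4, NDUFA8, NDUFB8 and NDUFS7 had log2 differences between 0.05 and 0.23, and between -0.19 and 0.10 without ZLD1039 tumour 2.

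Complex II held the member with the smallest p. SDHB (ENSG00000117118, chromosome 1, 17354151 to 17380665, minus strand) is the iron-sulfur subunit of succinate dehydrogenase, which also oxidises succinate in the citric acid cycle. SDHB measured 32.6, 30.7 and 33.6 FPKM in the vehicle tumours and 55.4, 56.4 and 41.4 FPKM in the ZLD1039 tumours. All treated tumours lay above all vehicle tumours, and ZLD1039 tumour 3 was the nearest to them. The log2 difference was 0.63 with a 95% interval of 0.23 to 1.03 (limma, unadjusted p = 0.00690, adjusted p = 0.881), and 0.55 without ZLD1039 tumour 2.

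SDHC (ENSG00000143252, chromosome 1, 161284047 to 161326630) encodes a membrane anchor of the same enzyme. It measured 35.7, 49.9 and 53.7 FPKM under vehicle and 44.4, 51.7 and 42.0 under ZLD1039. The treated tumours lay inside the vehicle range, with a 95% interval of the log2 difference from -0.45 to 0.46 (limma). The sum of both genes was 78.8 ± 9.63 FPKM under vehicle and 97.1 ± 12.6 under ZLD1039 (SD, n = 3).

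In complex III, ZLD1039 tumour 2 was the highest tumour at 6 of 6 genes. The complex summed to 428 ± 61.4 FPKM under vehicle and 498 ± 135 under ZLD1039 (SD, n = 3), a ratio of 1.16, and of 0.982 without that tumour. UQCRH (ENSG00000173660, chromosome 1, 46768920 to 46782448), the hinge protein next to cytochrome c1, measured 192, 187 and 262 FPKM under vehicle and 228, 319 and 201 under ZLD1039. Only ZLD1039 tumour 2 exceeded the vehicle range.

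UQCRB (ENSG00000156467), a small subunit near the ubiquinone site, showed the largest excess of ZLD1039 tumour 2 of any member, 2.94 times the mean of the other tumours. UQCRB measured 12.1, 6.64 and 7.96 FPKM under vehicle and 10.4, 26.2 and 7.41 under ZLD1039. Its log2 difference of 0.51 (standard error 0.42, limma, adjusted p = 0.881) was 0.02 without that tumour. UQCRC1 (ENSG00000010256, chromosome 3, 48636435 to 48647470), a core protein of the matrix side, had the lowest difference of the complex at 0.05. It measured 50.3, 58.2 and 59.5 FPKM under vehicle and 50.6, 70.2 and 54.6 under ZLD1039, and the groups overlapped. UQCRQ (ENSG00000164405), another small subunit, stood at 123 FPKM in ZLD1039 tumour 2 and between 61.2 and 78.3 in the others. CYC1 (cytochrome c1) and the core protein UQCRC2 had log2 differences of 0.20 and 0.14, and of 0.01 and -0.02 without ZLD1039 tumour 2.

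Complex IV genes summed to 436 ± 72.6 FPKM under vehicle and 533 ± 146 under ZLD1039 (SD, n = 3), a ratio of 1.22, and of 1.03 without ZLD1039 tumour 2. COX4I1 (ENSG00000131143, chromosome 16, 85832239 to 85840650), the ubiquitous isoform of the regulatory subunit 4, was the most abundant. COX4I1 measured 179.9, 128 and 163 FPKM under vehicle and 145, 208 and 135 under ZLD1039. ZLD1039 tumour 2 lay above the vehicle range and the other treated tumours within it.

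COX6B1 (ENSG00000126267, chromosome 19, 36139125 to 36149680), which faces the intermembrane space, varied more than any other member, 4.83-fold from the lowest to the highest tumour. COX6B1 measured 102, 44.6 and 127 FPKM under vehicle and 114, 216 and 87.9 under ZLD1039, a log2 difference of 0.63 (standard error 0.45, limma, adjusted p = 0.881). The lowest tumour was vehicle tumour 2, and without ZLD1039 tumour 2 the difference was 0.26. The value of the locus depended on where transcripts were read: in ZLD1039 tumour 2 its main end site carried 216 FPKM and its main start site 78.8. With summed start sites the log2 difference of COX6B1 was -0.18.

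COX5B (ENSG00000135940), a zinc-binding subunit, was the exception of complex IV, since its high tumour was ZLD1039 tumour 1. It measured 83.6 FPKM there and between 38.5 and 47.9 in the other tumours. COX5A, COX6C and COX7A2 were each highest in ZLD1039 tumour 2, with log2 differences of 0.24, 0.24 and 0.17, and 0.02, 0.03 and 0.0015 without it.

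The ATP synthase genes had a median log2 difference of 0.36, the largest of the 5 complexes with all tumours kept. Without ZLD1039 tumour 2 it was 0.20, below the 0.24 of complex II, and without vehicle tumour 1 it was 0.18, below complexes II (0.23) and IV (0.21). They summed to 392 ± 16.9 FPKM under vehicle and 504 ± 133 under ZLD1039 (SD, n = 3), a ratio of 1.29, and of 1.12 without that tumour. ATP5F1B (ENSG00000110955, chromosome 12, 57033764 to 57039798), the catalytic beta subunit, measured 191, 132 and 143 FPKM under vehicle and 137, 313 and 251 under ZLD1039. ZLD1039 tumours 2 and 3 lay above all vehicle tumours, and tumour 1 lay within their range. The log2 difference was 0.52 (standard error 0.31, limma, adjusted p = 0.881), and 0.27 without ZLD1039 tumour 2.

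ATP5F1C (ENSG00000165629, chromosome 10, 7830142 to 7849778), the gamma subunit that forms the rotating shaft, had the lowest difference of the complex. It measured 65.5, 72.9 and 44.6 FPKM under vehicle and 40.5, 58.4 and 74.5 under ZLD1039, so both groups covered nearly the same range. ATP5PO (ENSG00000241837, chromosome 21), part of the stalk that holds the catalytic head in place, measured 29.8, 31.9 and 36.1 FPKM under vehicle and 38.3, 52.8 and 36.9 under ZLD1039. These groups did not overlap, but vehicle tumour 3 and ZLD1039 tumour 3 lay close together, and the 95% interval of the log2 difference reached from -0.07 to 0.80 (limma, adjusted p = 0.881). Without ZLD1039 tumour 2 the difference was 0.20. The alpha subunit ATP5F1A (ENSG00000152234) lay between 106 and 116 FPKM in 5 tumours and at 160.0 in ZLD1039 tumour 2. The delta subunit ATP5F1D ranged from 18.5 to 49.8 FPKM, with a log2 difference of 0.38, and 0.23 without ZLD1039 tumour 2.

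SDHB and ATP5PO were the members with all treated tumours above all vehicle tumours, 2 of 30, where 5.75% of all loci did so. No member had all treated tumours below all vehicle tumours, against 5.2% of all loci. ATP5PO is named here because its groups did not overlap in the value of the locus, a choice made after its values were seen. At its main start site alone the groups overlapped, as given below.

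**Figure D2:**
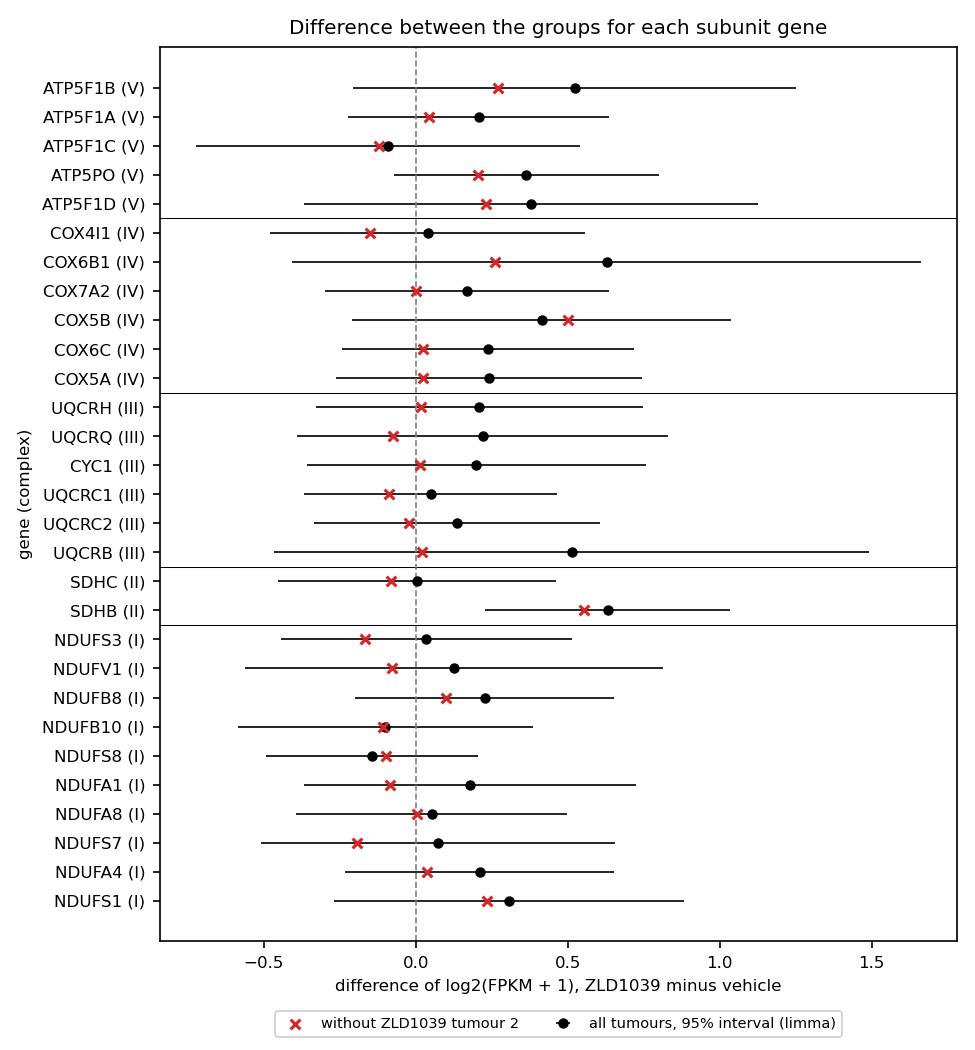
Difference of log2(FPKM + 1) between the groups, ZLD1039 minus vehicle (horizontal), for 29 subunit genes (vertical). Black points with bars are limma estimates with 95% intervals and red crosses the difference without ZLD1039 tumour 2; the interval of SDHB, 0.23 to 1.03, is the one that does not reach 0.

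ZLD1039 tumour 2 carried most of the upward shift. It was the highest tumour at 22 of the 30 genes, where it was highest at 26.5% of all loci. By complex it was highest at 6 of 11 genes of complex I, 1 of 2 of complex II, 6 of 6 of complex III, 5 of 6 of complex IV and 4 of 5 of the ATP synthase. Among the exceptions were NDUFB10 and NDUFS8, highest in vehicle tumour 2, NDUFA8 and SDHC, highest in vehicle tumour 3, COX5B, highest in ZLD1039 tumour 1, and NDUFS1 and ATP5F1C, highest in ZLD1039 tumour 3. The median log2 deviation of the 30 genes from the mean of the 6 tumours was 0.44 in ZLD1039 tumour 2. It was -0.17, -0.13 and 0.02 in vehicle tumours 1, 2 and 3, and -0.11 and -0.06 in ZLD1039 tumours 1 and 3. Over all loci that median was 0.01 in ZLD1039 tumour 2. The 30 genes took 0.949% of the summed locus FPKM there and 0.677 to 0.757% in the other tumours.

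Abundance moved with this pattern. Among all loci, ZLD1039 tumour 2 was highest at 17.5% of those with a mean of 1 to 5 FPKM, 25.7% from 5 to 20, 38.6% from 20 to 50, 46.2% from 50 to 100 and 53.9% above 100 FPKM. The median deviation of that tumour rose over the same classes from -0.08 to 0.02, 0.13, 0.18 and 0.22. In the 4 upper classes the subunit genes lay above these values, at 0.45 (3 genes), 0.43 (14), 0.42 (8) and 0.49 (5). The part that abundance has in the pattern was not tested. With other forms of the locus value or another scaling, ZLD1039 tumour 2 was highest at 18 to 22 of the genes, the lowest count being that after quantile normalization, with 25.1% of all loci.

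**Figure D3:**
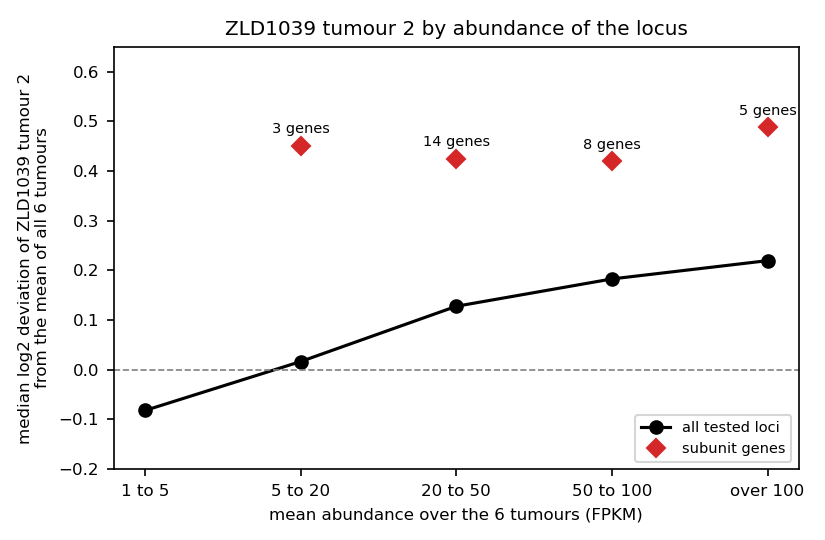
Median log2 deviation of ZLD1039 tumour 2 from the mean of all 6 tumours (vertical) by the mean abundance of the locus in FPKM (horizontal), for all tested loci (black) and the subunit genes (red diamonds, with their number). The black line rises from -0.08 to 0.22, and the subunit genes lie between 0.42 and 0.49.

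Transcript structure was examined at start sites, exons and introns. The 30 loci held 498 listed events, of which 280 were tested for abundance. None was called, against 0.0362% of 82894 events (limma), and 3 had an unadjusted p under 0.05, where all events gave 4.7%. The 3 lay in SDHB and SDHC. Transcripts that start at the main SDHB site (chromosome 1, 17380443 to 17380665) measured 32.6, 30.7 and 33.1 FPKM under vehicle and 55.4, 56.4 and 41.4 under ZLD1039. An SDHB exon with alternative ends (17355095 to 17355231) measured 30.9, 28.9 and 33.6 FPKM under vehicle and 53.2, 53.4 and 39.2 under ZLD1039. Both repeat the values of the locus, since they belong to the same transcripts.

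The third event was a start site inside the SDHC locus (chromosome 1, 161293404 to 161293460). It carried 0.0474, 0 and 0 FPKM under vehicle and 27.2, 0 and 26.4 FPKM under ZLD1039 (limma, unadjusted p = 0.0431, adjusted p = 0.855). The site was thus listed as a start in ZLD1039 tumours 1 and 3 and in no other tumour beyond 0.0474 FPKM. A run of SDHC exons that begins at the same position was included in every tumour, as given below. Whether transcription begins at this site, or the listed transcripts are incomplete at that end, was not tested. As a share of all SDHC starts it took 61.1, 0 and 62.8% in the ZLD1039 tumours, and at most 0.133% under vehicle. The upstream start (161284047 to 161284215) took 99.9, 99.8 and 99.4% under vehicle and 38.1, 100 and 37.2% under ZLD1039. The difference of that share was -41.3 percentage points with a 95% interval of -83.9 to 1.38 (limma, adjusted p = 0.764). For the whole locus ZLD1039 tumours 1 and 3 measured 44.4 and 42.0 FPKM, inside the vehicle range.

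An SDHC exon of 164 bases at the 3' end of the locus (161326467 to 161326630) had the smallest p among the inclusion values. It was included in 96.6, 91.3 and 67.0% of transcripts under vehicle and in 65.3, 67.4 and 63.5% under ZLD1039 (limma, adjusted p = 0.719). Vehicle tumour 3 lay with the treated tumours, below the other vehicle tumours. The run of SDHC exons that begins at the inner start site (161293404 to 161298287) was included at 99.99, 99.7 and 100% under vehicle and at 90.4, 96.2 and 99.98% under ZLD1039. In COX7A2, a 109-base exon (chromosome 6, 75949993 to 75950101) was not listed as included under vehicle, and was included at 69.0, 14.2 and 0% under ZLD1039. That exon stands on a mean total of 2.54 FPKM, a small part of the COX7A2 locus.

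In all, 30 exons, introns and exon runs in 17 genes were tested, and 0 were called (limma). Over all 13274 items 0% were called, and an unadjusted p under 0.05 was found for 2.09% of them and for 0 of the 30. Of 43 start sites in 17 genes, 0 were called in share, against 0% of 21321, and 0 had an unadjusted p under 0.05, against 2.49%. Besides those of SDHC, the start share with the smallest p belonged to a minor site of the NDUFB8 locus (chromosome 10, 102249765 to 102249928), at 7.94, 6.39 and 4.11% under vehicle and 0.907, 3.53 and 3.37% under ZLD1039. These groups did not overlap (limma, adjusted p = 0.764). The main start of that locus lay at 102289524 to 102289757, and the locus spans more than the gene, as given below. Whether the minor site belongs to NDUFB8 or to a neighbouring gene cannot be told. A 37-base exon of ATP5F1C (chromosome 10, 7848937 to 7848973), an exon known to be skipped in heart and skeletal muscle, was included at 97.9, 97.8 and 99.99% under vehicle and at 100, 99.99 and 85.3% under ZLD1039. The form that includes it led in all 6 tumours. It is given for its known biology, a choice made after its values were seen.

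The leading start site was stable in most of these genes. Several start sites were listed for 23 genes, and 1 site led in every tumour for 21 of these. In SDHC the leading site differed between tumours, as given above.

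**Figure D4:**
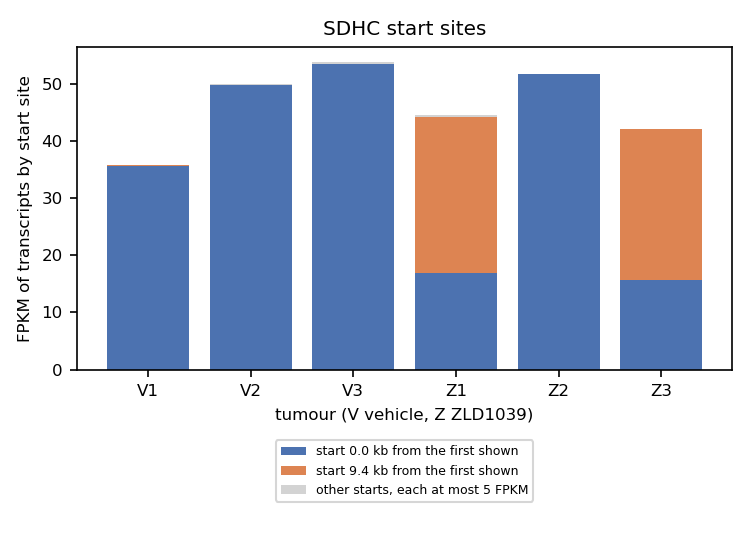
FPKM of transcripts by start site (vertical, stacked) in each tumour (horizontal, V for vehicle and Z for ZLD1039) for SDHC. The site drawn second carries 27.2 and 26.4 FPKM in ZLD1039 tumours 1 and 3 and at most 0.0474 elsewhere.

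Some loci hold more than the gene. At 3 of the 30 the locus spanned over 3 times the length of the mouse gene of that name: 356 kb against 6.47 kb for ATP5PO, 43.4 against 6.87 kb for NDUFB8, and 10.8 against 2.74 kb for CYC1. In the ATP5PO locus 1 start site (chromosome 21, 35288032 to 35288065) led in every tumour. It carried 23.7, 27.9 and 31.4 FPKM under vehicle and 33.2, 46.1 and 30.6 under ZLD1039. At that site ZLD1039 tumour 3 lay below vehicle tumour 3, so the groups overlapped, unlike those of the whole locus. Transcripts of neighbouring genes within these loci cannot be told apart from those of the subunit. The COX6C locus, by contrast, spanned 0.744 kb.

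Other nuclear subunits had a median log2 difference close to that of the 30 genes. Of 36 further nuclear subunits, chosen by name, 34 had rows and were tested, and 0 were called (limma), with an unadjusted p under 0.05 for 3 (NDUFS4, NDUFC2 and ATP5MG), against 4.94% of all loci. Their median log2 difference was 0.21, with 31 above 0, against 52.8% of all loci. It was 0.04 without ZLD1039 tumour 2, which was the highest tumour at 25 of 34, against 26.5% of all loci. Groups did not overlap at NDUFS4, NDUFC2, NDUFA5 and ATP5MG, 4 of 34, all higher under ZLD1039 and named after their values were seen, where 5.75% of all loci had this order. NDUFS4, an accessory subunit of complex I, measured 21.95, 31.1 and 30.1 FPKM under vehicle and 32.7, 67.6 and 44.4 under ZLD1039, a log2 difference of 0.73 (limma, adjusted p = 0.881), and 0.46 without ZLD1039 tumour 2. ATP5MG, a membrane subunit of the ATP synthase, measured 14.8, 16.7 and 23.2 FPKM under vehicle and 28.7, 25.8 and 26.4 under ZLD1039, a log2 difference of 0.56 (limma, adjusted p = 0.881).

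Assembly factors, which build the complexes and are not part of them, were tested at 14 of 18 genes. By limma 0 were called and 0 had an unadjusted p under 0.05, against 0.0185% and 4.94% of all loci. Their median log2 difference was 0.11, or 0.02 without ZLD1039 tumour 2. That tumour was the highest at 9 of 14, against 26.5% of all loci. NDUFAF1, a complex I assembly factor, measured 8.96, 10.2 and 8.73 FPKM under vehicle and 12.5, 12.7 and 11.1 under ZLD1039 without overlap (limma, adjusted p = 0.881). It was the only one of the 14 without overlap and is named after its values were seen. All treated tumours lay above all vehicle tumours at 5.75% of all loci. Of 9 regulators of mitochondrial gene expression 8 had rows and 6 were tested. Among these, 0 were called and 0 had an unadjusted p under 0.05 (limma), against the same shares of all loci. Their median log2 difference was 0.24, or 0.16 without ZLD1039 tumour 2, with 6 above 0, against 52.8% of all loci. TFB2M, a mitochondrial transcription factor, measured 24.4, 22.2 and 26.2 FPKM under vehicle and 28.1, 29.4 and 32.1 under ZLD1039, without overlap (limma, adjusted p = 0.881). It was the only one of the 6 without overlap, an order found at 5.75% of all loci, and is named after its values were seen. LRPPRC, which stabilises mitochondrial mRNA, measured 33.5, 42.9 and 40.5 FPKM under vehicle and 52.4, 40.4 and 62.5 under ZLD1039, with overlap. The coactivators PPARGC1A and PPARGC1B reached no more than 0.780 and 0.745 FPKM in any tumour and were not tested.

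Of the 13 subunits encoded in mitochondrial DNA, 1 had rows. That locus, under the identifier of MT-CYB, gave 108, 329.6 and 0 FPKM under vehicle and 36.1, 207 and 1.06 under ZLD1039, so that tumours of 1 group differed far more than the groups. Of 6 tissue-specific isoforms of the subunits, NDUFA4L2 had rows and stayed at or below 0.0884 FPKM. EZH2, the target of the inhibitor, measured 6.88, 7.09 and 6.85 FPKM under vehicle and 8.07, 8.96 and 8.63 under ZLD1039. Its groups did not overlap, an order found at 5.75% of all loci, and its log2 difference was 0.27 (limma, adjusted p = 0.881). ZLD1039 acts on the enzyme and not on its transcript, so this value does not check the labels.

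Markers of muscle, fat and fibroblasts were low where they had rows, and the blood cell marker CD68 was not. Muscle, which expresses these subunits strongly, was represented by MB alone of 4 genes, at no more than 0.0491 FPKM. Fat was represented by FABP4 of 2 genes, at no more than 0.565 FPKM. Fibroblast and vessel wall genes (5 of 6 with rows) summed to 6.81 to 14.1 FPKM under vehicle and 5.04 to 10.1 under ZLD1039, with LUM at 0 in 5 tumours. Of 3 blood cell genes, CD68 had rows, at 634 to 794 FPKM under vehicle and 672 to 924 under ZLD1039. Its locus spanned 31.4 kb, against 1.94 kb for the mouse gene, so transcripts of neighbouring genes cannot be told apart from those of CD68. Of 2 endothelial genes 0 had rows. All these markers were matched by human identifiers at human positions, whereas the host was mouse. Their levels therefore cannot show how much host tissue the tumours held. The part of other cells in the subunit values was not tested.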

How the data were processed

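The authors deposited, per the file headers, 1 list of transcript events per tumour with an FPKM value for each event, its position and, for most loci, an Ensembl identifier. Per the labels, bead-purified mRNA went into a SMARTer mRNA library kit. Named in the submitters' processing notes are HTSeq 0.6.1, bcl2fastq 2.17.1.14 and, as build, mouse mm10. The positions are those of a human genome instead, so they are given as in the files and no sequence was read. Aligner and assembler were not given in the sources used here.

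Each locus took the largest of 3 values (the sum over its starts, the sum over its ends and its most abundant event), and unlisted events counted as 0. Loci whose mean reached 1 FPKM in either group were tested in limma 3.58.1 (R 4.3.3) on log2(FPKM + 1), a pseudocount of 1. The fit used a mean-variance trend, and p-values were adjusted by Benjamini-Hochberg over all loci, with a threshold of 0.05. Fold changes on that scale understate changes of low genes. No count model was run, since FPKM are normalized values. Inclusion and start shares, in percent, were tested in limma at a mean total of at least 1 FPKM, a total above 0 in all 6 tumours and a mean share over 1% and under 99%. The fit was tested on simulated data.

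Gene symbols were paired with identifiers by hand. Exon lengths were compared with those of 18682 mouse genes: of 8 members with at least 8 exon lengths, the mouse gene of the same name ranked first for 5. For the rest of these 8 it ranked 2 (COX4I1), 32 (ATP5PO) and 451 (NDUFB8). Exon lengths were listed for 26 members, and ranks varied widely where they were fewer. With 6 lengths the gene ranked 1 for SDHC, and with 2 it ranked 300 for SDHB. For UQCRH 0 of 3 lengths matched, so the pairing of such members is weakly checked by exon lengths. Full values were given for the most abundant gene and those with the highest and lowest difference in each complex, and for the 3 events and 3 shares with the smallest p. The values of 1 gene are not reported here. The members and all gene lists were chosen with earlier results of these data known. Alternatives covered the pseudocount, the filters, the locus value, scaling, the trend, a replicate block and leaving out each tumour.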

Additional observations from a re-analysis of the deposited data

How the results depend on the processing

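The count of called members was 0 under every alternative run for loci, events, inclusion and start shares (limma). Of 358 comparisons with an alternative, 336 kept direction and side of the threshold, as far as these apply. The comparisons include counts, which have no direction, and values of complexes, which were not tested against a threshold. Signs changed for 16 log2 differences of single genes, none of which was called, and for 6 of complexes. The median of complex I was -0.083 and that of complex III -0.0037 without ZLD1039 tumour 2. The log2 ratio of summed FPKM was -0.060 for complex I with summed start events, and as low as -0.086 for complex I and -0.017 for complex III with 1 tumour left out. With quantile normalization the log2 difference was -0.023 for NDUFS3, -0.049 for SDHC, -0.012 for COX4I1 and -0.0081 for UQCRC1. With median-of-ratios scaling it was -0.015 for SDHC, and with summed start events -0.18 for COX6B1. With 1 tumour left out it ranged from -0.17 to 0.14 for NDUFS3, -0.17 to 0.12 for SDHC, -0.087 to 0.15 for UQCRC1, -0.15 to 0.16 for COX4I1 and -0.30 to 0.14 for ATP5F1C. The cause was not tested. SDHB lay between 0.55 and 0.77 with 1 tumour left out, with an adjusted p of 0.518 to 0.997 over its alternatives (limma). Summed end events left 21 members with a value and none of complex II. Same-numbered tumours of the 2 groups gave correlations of -0.032, 0.020 and -0.061, and different-numbered tumours gave -0.063 to 0.105. With 3 tumours per group these values cannot tell whether the numbers pair the tumours, and no pairing is stated. With the replicate block, 0 members were called. The median log2 difference of the 30 genes stayed at 0.20, which the block cannot change, since both groups hold the same replicate numbers. Depth is unknown, so its part in the spread was not tested. The count of genes highest in ZLD1039 tumour 2 was taken under alternatives chosen after seeing the data.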
